A study of Mus musculus with 10 samples.

Results

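The genes described here are 34 genes of DNA replication and S phase entry, out of 46603 rows in the deposited count table of macrophages sorted from 4T1 tumours. A row was taken when its gene name equalled 1 of the 34 names, and each name matched exactly 1 row. The names were proposed with earlier results of these data known. 4T1 cells are a line of mouse mammary carcinoma that grows as tumours in mice. Living cells positive for CD11B and F4/80, the surface pair commonly used for mouse macrophages, were split by podoplanin (PDPN), a membrane glycoprotein. The PDPN-positive fraction is named PoEMs in the labels and the PDPN-negative fraction non-PoEMs. There were 5 libraries in each group, because tumours 1, 2, 4, 5 and 6 each gave both fractions. The labels describe 1 enzyme digestion for both groups, followed by SMART-Seq pre-amplification of the RNA. The labels used here give no mouse strain, age, treatment or genotype, and do not say whether each tumour came from its own mouse. P-values therefore speak for the spread between these tumours and libraries.

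Before a cell divides it must copy its genome once. In G1 phase the origin recognition complex, CDC6 and CDT1 load the MCM helicase ring onto origins, a step called licensing. Cyclin D and cyclin E kinases then release E2F transcription factors from the retinoblastoma protein, and E2F switches on the genes for helicase, polymerases and nucleotide synthesis. The protein p21, encoded by Cdkn1a, inhibits those kinases. In tissues, macrophages come from blood monocytes or renew by local division, so a sorted macrophage pool can hold cells at any stage of the cycle. In such bulk RNA, a larger share of dividing cells and more of the transcript per cell cannot be told apart.

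Promoter windows of 250 bases before to 50 bases after the start were taken from RefSeq (GRCm38.p6) and matched by symbol for 27 of the 34 genes. They were searched on both strands for the core E2F motif in its 4 spellings TTTCCCGC, TTTCGCGC, TTTGCCGC and TTTGGCGC. At least 1 window held a match in 12 of the 27 genes (44.4%), against 434 of 9138 tested genes with a window in the same table (4.75%) and 2.605% of all 27025 genes there. Base composition was not matched between these sets. Matches were in Cdc6, Cdt1, E2f2, Hells, Lig1, Mcm3, Mcm5, Mcm6, Mcm7, Orc1, Pola1 and Uhrf1. The windows of the 3 rising genes with the lowest p and of the gene that fell are shown first, followed by 2 helicase genes chosen because their matches overlap. All are written 5′ to 3′ on the gene's strand, with motif matches in capitals:

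Ccne1 (chr7:38107441-38107740, minus strand): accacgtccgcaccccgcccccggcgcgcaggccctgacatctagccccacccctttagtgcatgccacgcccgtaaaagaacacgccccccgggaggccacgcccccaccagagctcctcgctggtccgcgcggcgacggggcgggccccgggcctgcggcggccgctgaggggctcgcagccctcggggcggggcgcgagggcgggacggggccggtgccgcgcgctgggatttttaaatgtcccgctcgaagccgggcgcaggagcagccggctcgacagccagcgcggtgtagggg
E2f2 (chr4:136172024-136172323, plus strand): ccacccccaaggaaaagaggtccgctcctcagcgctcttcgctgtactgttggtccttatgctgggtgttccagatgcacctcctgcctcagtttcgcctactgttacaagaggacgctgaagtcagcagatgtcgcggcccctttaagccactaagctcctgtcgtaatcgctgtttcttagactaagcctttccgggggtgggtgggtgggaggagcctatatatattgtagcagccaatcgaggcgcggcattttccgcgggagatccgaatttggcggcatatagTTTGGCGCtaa
Lig1 (chr7:13278576-13278875, plus strand): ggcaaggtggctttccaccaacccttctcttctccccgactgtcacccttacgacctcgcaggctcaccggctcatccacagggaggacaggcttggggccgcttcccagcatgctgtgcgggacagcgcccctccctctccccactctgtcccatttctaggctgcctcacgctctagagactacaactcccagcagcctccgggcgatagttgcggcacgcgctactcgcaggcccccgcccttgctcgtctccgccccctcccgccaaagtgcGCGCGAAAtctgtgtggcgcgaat
Cdkn1a (chr17:29093519-29093818, plus strand): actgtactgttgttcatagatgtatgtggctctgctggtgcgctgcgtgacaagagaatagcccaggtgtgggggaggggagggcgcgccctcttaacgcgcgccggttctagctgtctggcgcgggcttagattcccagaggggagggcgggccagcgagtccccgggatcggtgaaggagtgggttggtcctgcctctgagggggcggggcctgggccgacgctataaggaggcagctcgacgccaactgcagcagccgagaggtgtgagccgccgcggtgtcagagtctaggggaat
Mcm5 (chr8:75109259-75109558, plus strand): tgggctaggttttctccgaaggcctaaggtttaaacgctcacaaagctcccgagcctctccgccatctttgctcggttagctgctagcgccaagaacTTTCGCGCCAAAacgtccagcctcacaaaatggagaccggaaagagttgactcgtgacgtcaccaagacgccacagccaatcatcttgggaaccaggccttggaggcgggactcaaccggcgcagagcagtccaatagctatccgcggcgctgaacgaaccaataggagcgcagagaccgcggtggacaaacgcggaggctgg
Mcm6 (chr1:128359656-128359955, minus strand): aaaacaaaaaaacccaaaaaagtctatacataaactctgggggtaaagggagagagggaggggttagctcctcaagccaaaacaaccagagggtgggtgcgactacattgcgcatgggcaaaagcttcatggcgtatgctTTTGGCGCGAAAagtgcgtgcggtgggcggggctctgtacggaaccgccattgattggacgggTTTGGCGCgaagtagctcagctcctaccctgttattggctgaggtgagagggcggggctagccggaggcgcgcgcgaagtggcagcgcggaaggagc

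Positions are counted from the transcription start that each window spans, not from the window's first base. E2f2 has its match 39 bases after the start. The Lig1 window shown has 1 match, in reverse, 26 bases after the start. In Mcm5 a forward match 153 bases before the start overlaps a reverse match at 149 bases, so that the capitals run through both. Mcm6 has the same arrangement at 110 and 106 bases, and a further match 47 bases before the start. The windows of Ccne1 and Cdkn1a hold no match, which says only that these letters are not in them. RefSeq lists a second window for E2f2 and Cdkn1a and 2 further windows for Lig1, none of which holds a match. A match is a string of letters, not evidence of a bound factor.

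Replication genes were higher in the PDPN-positive libraries, by modest amounts, and the cell cycle inhibitor gene Cdkn1a was lower. Levels are given as CPM (counts per 1000000 counts of the scaled library). Groups were compared with edgeR's quasi-likelihood test over 13595 genes, and a gene was called where its Benjamini-Hochberg adjusted p was under 0.05. All 34 genes had enough counts to be tested, with 35 to 11733 counts per library. Of these, 19 were higher and 1 was lower. Of all genes tested, 6.83% were called higher and 6.77% lower. Called increases ran from 1.19-fold (Fen1) to 1.61-fold (Ccne1). The median fitted change of the 34 was 0.39 on the log2 scale, against 0.01 over all genes tested. In 27 of them the PDPN-positive library was the higher one in 5 of 5 tumours. Within single tumours it was the higher one for 6724 to 7144 of all 13595 genes tested. In 9 genes, all called, every PDPN-positive library lay above every PDPN-negative one, as did 5.38% of the genes tested. None lay wholly below, as did 5.13% of the genes tested. The 9 were Pcna, Rrm2, Tyms, Ccne1, Cdc6, Fen1, Lig1, E2f1 and E2f2. The fit behind these calls leaves out the pairing of libraries by tumour, so differences between tumours stay in its error. With the tumour added to the model as a block, which compares the fractions within each tumour, 30 were higher and 1 lower. Of all genes, 13.8% and 14.3% were called there. The block called 11 of the 34 higher that the fit without it did not. Without the PDPN-positive library of tumour 4, 12 were higher in the fit without the block.

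**Figure D1:**
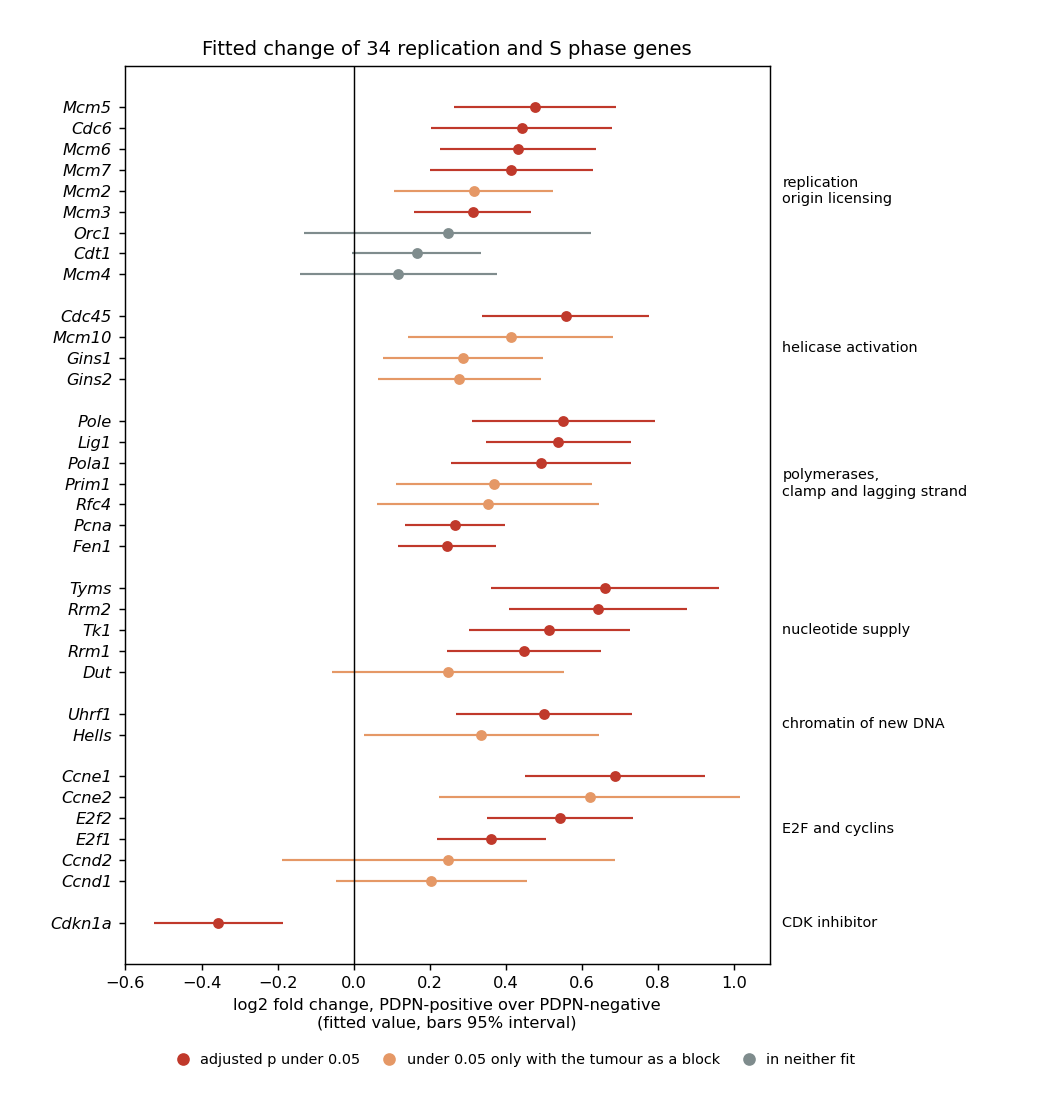
Fitted log2 fold change of each of the 34 genes, PDPN-positive over PDPN-negative, with bars for an approximate 95% interval from the normal distribution. The bars are narrower than the edgeR test implies. Genes are grouped by role and coloured by whether edgeR called them. All points but Cdkn1a lie to the right of 0, and the 3 genes called in neither fit (Mcm4, Cdt1 and Orc1) are licensing genes.

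Origin licensing genes gave a mixed picture: 5 of 9 were higher, against 6.83% of all genes tested. The 3 genes called in neither fit were all in this group. Below, values are listed for tumours 1, 2, 4, 5 and 6 in that order. Mcm5, a subunit of the helicase ring (ENSMUSG00000005410), measured 132, 124, 130.1, 89.1 and 108 CPM in the PDPN-positive and 93.6, 71.4, 82.7, 80.8 and 91.0 CPM in the PDPN-negative libraries. Each PDPN-positive library was above its partner, but that of tumour 5 lay below 2 PDPN-negative libraries of other tumours. Means of 117 ± 18.1 and 83.9 ± 8.84 CPM (SD, n = 5 each) correspond to a fitted log2 difference of 0.48 ± 0.11 (SE), with an edgeR adjusted p of 0.0132. Mcm6 and Mcm7, 2 further ring subunits, had log2 increases of 0.43 ± 0.10 and 0.41 ± 0.11 (SE, edgeR adjusted p = 0.0168 and 0.0259). Mcm3 rose by 0.31 ± 0.08 (adjusted p = 0.0194), from 117 ± 8.84 to 146 ± 15.04 CPM (SD, n = 5 each). Single libraries decided some of these calls in the fit without the block. Without PDPN-positive tumour 4 the adjusted p was 0.0514 for Mcm6, 0.0740 for Mcm7 and 0.0619 for Mcm3. Mcm7 and Mcm3 also missed the threshold without PDPN-positive tumour 1 (0.0664 and 0.0535) or PDPN-negative tumour 2 (0.0700 and 0.0546), 4 (0.0571 and 0.0515) or 5 (0.0627 and 0.05001). With the block all 3 passed, also with both libraries of any 1 tumour left out (adjusted p up to 0.00890 for Mcm3, 0.00264 for Mcm6 and 0.00941 for Mcm7).

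The ring subunit Mcm4 (ENSMUSG00000022673) passed in neither fit. It measured 137, 148, 129.8, 110.5 and 135 CPM in the PDPN-positive and 152, 108, 109, 94.1 and 146 CPM in the PDPN-negative libraries. The PDPN-positive library was the lower one in tumours 1 and 6 and the higher one in tumours 2, 4 and 5. Its log2 fold change was 0.12 ± 0.13 (SE, edgeR adjusted p = 0.614, and 0.313 with the block), and its approximate 95% interval ran from -0.14 to 0.38. That interval includes the fitted changes of Mcm2 and Mcm3 (0.31 each) but not those of Mcm5, Mcm6 and Mcm7 (0.48, 0.43 and 0.41). With the block the log2 fold change was 0.13 ± 0.09 (SE) for Mcm4, 0.31 ± 0.06 for Mcm2 and 0.31 ± 0.05 for Mcm3. The difference between Mcm4 and the other subunits was not tested. Mcm2 went from 83.3 ± 10.4 to 104 ± 14.5 CPM (SD, n = 5 each) and passed with the block (adjusted p = 0.00213) but not without it (0.0704). It also passed without PDPN-positive tumour 5 (0.0234) or PDPN-negative tumour 6 (0.0402).

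The loading factors also split. Cdc6, which recruits the ring to origins, measured 13.4, 14.5, 17.2, 11.8 and 11.6 CPM in the PDPN-positive and 10.6, 10.6, 9.68, 8.52 and 11.2 CPM in the PDPN-negative libraries. The groups did not overlap, and the log2 increase was 0.44 ± 0.12 (SE, edgeR adjusted p = 0.0298). That call was lost without PDPN-positive tumour 1 (0.0555), 2 (0.0599) or 4 (0.0803) or PDPN-negative tumour 2 (0.0544), 4 (0.0672) or 5 (0.0717). It held with the block (0.00670), also with any 1 tumour left out (up to 0.0409). Cdt1, its partner in loading, did not pass (53.5 ± 3.64 against 47.8 ± 6.17 CPM, SD, n = 5 each, adjusted p = 0.232, and 0.0839 with the block). Orc1, the largest subunit of the origin recognition complex, had 8.93 to 11.7 CPM in the PDPN-positive and 5.64 to 12.2 CPM in the PDPN-negative libraries. The PDPN-positive library was the higher in 3 of 5 tumours (log2 fold change 0.25 ± 0.19, SE, adjusted p = 0.443, and 0.198 with the block). Both extremes of Orc1 were in PDPN-negative libraries, tumour 2 the lowest and tumour 1 the highest. With both libraries of tumour 6 left out, Cdt1 and Orc1 passed in the blocked fit (0.0140 and 0.0394).

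Of the 4 genes that turn the loaded ring into a working helicase, Cdc45 passed without the block and all passed with it. Among all genes tested, 6.83% were called higher without the block and 13.8% with it. Cdc45 encodes a core part of the active helicase and measured 23.3, 21.1, 19.7, 16.0 and 20.3 CPM in the PDPN-positive and 16.4, 12.1, 14.4, 12.5 and 13.0 CPM in the PDPN-negative libraries. Only the PDPN-positive library of tumour 5 reached into the range of the other group. On the log2 scale the fitted increase was 0.56 ± 0.11 (SE, edgeR adjusted p = 0.00612). Gins1 and Gins2, subunits of the GINS complex that joins CDC45 on the ring, were 1.22-fold and 1.21-fold higher (adjusted p = 0.0977 and 0.116, and 0.0298 and 0.0108 with the block). Mcm10, a scaffold of helicase activation, had 26.1 ± 5.59 against 19.7 ± 2.17 CPM (SD, n = 5 each, adjusted p = 0.0668, and 0.0293 with the block). Its increase differed between tumours, from 1.02-fold in tumour 5 and 1.03-fold in tumour 6 to 1.81-fold in tumour 4. Without PDPN-positive tumour 5, Mcm10 and Gins1 passed without the block too (0.0175 and 0.0443). Calls made with the block also depended on single tumours. Mcm10 lost its call there without tumour 1 (0.108), 2 (0.111) or 4 (0.0713), Gins1 without tumour 1 (0.0697), 2 (0.126), 4 (0.114) or 5 (0.0536), and Gins2 without tumour 2 (0.0576).

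Genes of DNA synthesis at the fork were called higher in 5 of 7 cases, and in 7 of 7 with the block. Of all genes tested, 6.83% were called higher without the block and 13.8% with it. Lig1, the ligase that seals Okazaki fragments (ENSMUSG00000056394), measured 92.9, 84.9, 95.9, 67.8 and 73.2 CPM in the PDPN-positive and 61.0, 52.8, 62.0, 51.6 and 58.6 CPM in the PDPN-negative libraries. There was no overlap between the groups, and the fitted increase was 0.54 ± 0.10 on the log2 scale (SE, edgeR adjusted p = 0.00334). Pole, the catalytic subunit of the leading-strand polymerase, rose from 28.5 ± 5.04 to 41.7 ± 5.59 CPM (SD, n = 5 each, adjusted p = 0.0116). Pola1, which extends the primers that start each strand, rose from 28.4 ± 3.38 to 39.8 ± 7.18 CPM (adjusted p = 0.0182). The Pola1 call was lost without PDPN-positive tumour 4 (0.0521) or PDPN-negative tumour 2 (0.0516), and held with the block (0.000512). Prim1, which encodes the primase that lays those primers, and Rfc4, part of the clamp loader, passed only with the block (adjusted p = 0.00419 and 0.0284, against 0.0828 and 0.140). Prim1 also passed without PDPN-positive tumour 5 (0.0382). Rfc4 lost its call in the blocked fit without tumour 2 (0.115), 4 (0.13003) or 5 (0.0914).

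The sliding clamp gene Pcna and the flap nuclease gene Fen1 had small increases with little spread. Pcna (ENSMUSG00000027342) measured 77.8, 68.0, 78.6, 69.7 and 69.5 CPM in the PDPN-positive and 66.5, 56.0, 57.7, 57.9 and 64.4 CPM in the PDPN-negative libraries. Its log2 fold change was 0.27 ± 0.07 (SE, edgeR adjusted p = 0.0201). Fen1, whose product trims Okazaki fragments, went from 73.4 ± 2.83 to 86.9 ± 7.80 CPM (SD, n = 5 each, adjusted p = 0.0257). For neither gene did the groups overlap. Both calls were lost without PDPN-positive tumour 1 (Pcna 0.0559, Fen1 0.0689) or 4 (0.0665, 0.0823) or PDPN-negative tumour 2 (0.0581, 0.0674), 4 (0.0548, 0.0646) or 5 (0.0505, 0.0564). Both held with the block (0.00193, 0.00333), also with any 1 tumour left out (up to 0.0142, 0.0241). The pseudogene row Pcna-ps2, outside the 34 and picked after its values were seen, was listed at 68.8 ± 4.63 against 57.6 ± 4.49 CPM (SD, n = 5 each), nearly the level of Pcna itself. The sources do not state how reads shared by such copies were counted, which leaves the level of Pcna uncertain.

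Nucleotide supply genes had the highest median change of the groups with more than 1 gene, 0.51 on the log2 scale. Here 4 of 5 were called higher, against 6.83% of all genes tested. Rrm2, the S phase subunit of ribonucleotide reductase (ENSMUSG00000020649), measured 65.9, 61.0, 65.5, 49.6 and 59.2 CPM in the PDPN-positive and 48.2, 30.9, 37.8, 33.2 and 43.1 CPM in the PDPN-negative libraries. The lowest PDPN-positive library, tumour 5, was still above the highest PDPN-negative one, tumour 1. The fitted increase was 0.64 ± 0.12 on the log2 scale (SE, edgeR adjusted p = 0.00446). Tyms, which makes thymidylate, measured 28.8, 23.5, 24.99, 21.4 and 26.3 CPM against 21.3, 12.9, 12.7, 13.2 and 19.3 CPM. Here the groups only just failed to overlap, at 21.4 and 21.3 CPM, and the log2 fold change was 0.66 ± 0.15 (SE, adjusted p = 0.0142). Rrm1, the large subunit of the reductase, rose from 104 ± 13.7 to 141 ± 17.9 CPM, and the thymidine salvage gene Tk1 from 21.7 ± 3.18 to 30.9 ± 3.65 CPM (SD, n = 5 each, adjusted p = 0.0138 and 0.00774). Dut, which clears dUTP, passed only with the block (adjusted p = 0.0207, against 0.331 without it), and not when tumour 1 (0.0519), 2 (0.113) or 4 (0.0672) was left out of that fit.

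Uhrf1 and Hells, which maintain methylation and packing of newly copied DNA, split between the fits. Uhrf1 measured 71.7, 66.9, 80.5, 57.7 and 50.8 CPM in the PDPN-positive and 55.3, 43.0, 44.8, 42.3 and 46.7 CPM in the PDPN-negative libraries (log2 increase 0.50 ± 0.12, SE, edgeR adjusted p = 0.0158). This difference was large in tumour 4 (1.80-fold) and small in tumour 6 (1.09-fold). Hells had 26.5 ± 4.44 against 21.1 ± 4.80 CPM (SD, n = 5 each, adjusted p = 0.188, 0.0214 with the block, and 0.0455 without PDPN-negative tumour 1). In the blocked fit Hells missed the threshold without tumour 2 (0.0968), 4 (0.0842) or 5 (0.0895).

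**Figure D2:**
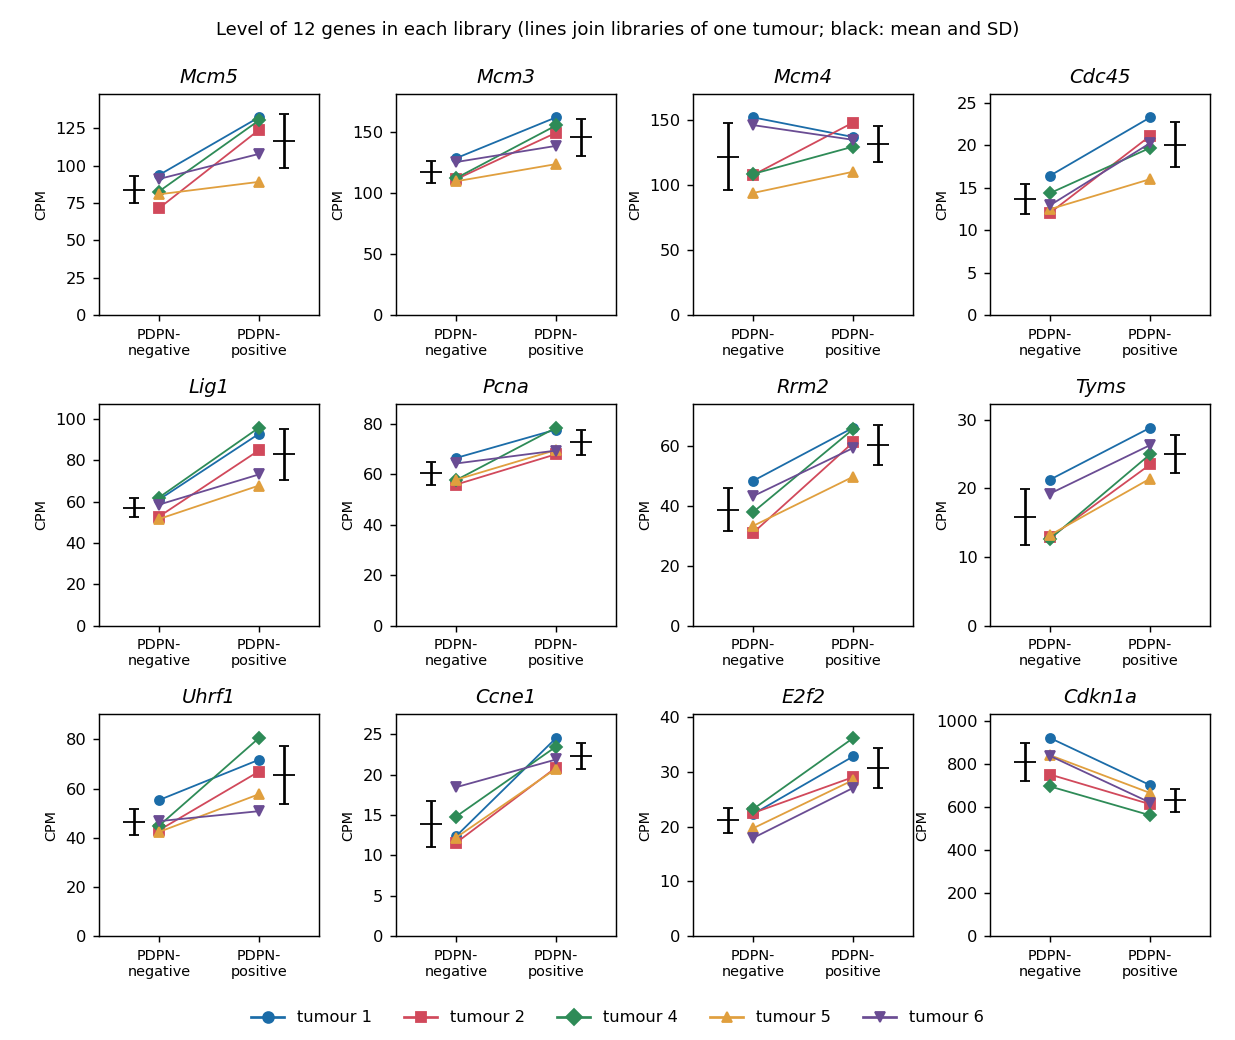
CPM of 12 of the genes in each of the 10 libraries, with lines joining the 2 fractions of a tumour and black bars for the mean and SD of each group (n = 5). The lines rise for all panels but Mcm4, where they cross, and Cdkn1a, where all 5 fall.

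Among the regulators, cyclin E1 and both E2F activators were higher, and the D cyclins passed only with the block. Ccne1, whose product drives entry into S phase (ENSMUSG00000002068), measured 24.6, 20.9, 23.5, 20.8 and 21.9 CPM in the PDPN-positive and 12.4, 11.6, 14.8, 12.2 and 18.5 CPM in the PDPN-negative libraries. The groups were apart, and the log2 fold change of 0.69 ± 0.12 was the largest of the 34 (SE, edgeR adjusted p = 0.00282). Its relative Ccne2 was much less abundant, at 7.18 ± 1.13 against 4.69 ± 1.42 CPM (SD, n = 5 each), with as few as 35 counts in a library. Ccne2 passed with the block (adjusted p = 0.00431) and without PDPN-negative tumour 1 (0.0246), but not with all libraries and no block (0.0603).

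E2f2, an activator of S phase genes (ENSMUSG00000018983), measured 32.9, 29.1, 36.2, 28.5 and 27.1 CPM in the PDPN-positive and 22.3, 22.5, 23.2, 19.7 and 17.9 CPM in the PDPN-negative libraries. Within tumours the increase was 1.29- to 1.56-fold (0.54 ± 0.10 on the log2 scale, SE, edgeR adjusted p = 0.00325). E2f1, the first known activator of the family, rose from 42.8 ± 2.74 to 55.0 ± 5.26 CPM (SD, n = 5 each, adjusted p = 0.00620), also without overlap. Ccnd1 and Ccnd2, the cyclins that link growth signals to the cycle, varied more between tumours than between fractions. Ccnd2 measured 174, 205, 176, 136 and 89.7 CPM in the PDPN-positive and 165, 156, 124, 119 and 93.4 CPM in the PDPN-negative libraries. In both fractions tumour 6 was the lowest. Its log2 fold change was 0.25 ± 0.22 (SE, adjusted p = 0.520, and 0.0493 with the block). Ccnd1, at 176 to 306 against 185 to 244 CPM, gave 0.20 ± 0.13 (adjusted p = 0.329, and 0.0315 with the block). With both libraries of 1 tumour left out of the blocked fit, each D cyclin missed the threshold without tumour 1 (Ccnd1 0.0844, Ccnd2 0.0629), 2 (0.13015, 0.168), 4 (0.158, 0.158) or 5 (0.0785, 0.125).

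Cdkn1a, which encodes the kinase inhibitor p21 (ENSMUSG00000023067), was the gene that fell. It measured 699.7, 611, 560.0, 663 and 619 CPM in the PDPN-positive and 919, 749, 694, 839 and 835 CPM in the PDPN-negative libraries. The ranges touched only through PDPN-positive tumour 1 and PDPN-negative tumour 4. Within tumours the ratio was 0.741 to 0.816, and the fitted difference was -0.36 ± 0.09 on the log2 scale (SE), with an edgeR adjusted p of 0.0165. Leaving out single libraries gave adjusted p-values up to 0.0478. The protein p21 is a classical target of the tumour suppressor p53, so a list of 21 further p53 pathway genes was read beside it. Of 20 tested, 1 was higher and 2 were lower, and 5 were lower with the block. The share called without the block, 15%, is near the 13.6% of all genes tested, so these counts are not a result about the list. The median was -0.07 on the log2 scale. The 2 that fell were Btg2, an antiproliferative gene that is also an early response gene, from 933 ± 98.9 to 465 ± 50.6 CPM, and Pmaip1, a proapoptotic gene, from 187 ± 19.3 to 102 ± 10.6 CPM (SD, n = 5 each, adjusted p = 2.81e-05 and 4.89e-05). Plk2, a stress-responsive kinase gene, was 1.30-fold higher (adjusted p = 0.0293). That call was lost without PDPN-positive tumour 4 (0.0729), 5 (0.0637) or 6 (0.0620) or PDPN-negative tumour 1 (0.0552), 2 (0.0690), 5 (0.0526) or 6 (0.0522).

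Tumours differed in the size of the change. The median log2 ratio within the tumour over the 34 genes, taken on CPM with 0.1 added, was 0.34 in tumour 1, 0.55 in tumour 2, 0.56 in tumour 4, 0.34 in tumour 5 and 0.11 in tumour 6. Over all genes tested the same median was at most 0.02 from 0. In tumours 2, 4 and 5 the PDPN-positive library was higher for 33 of the 34 genes, in tumour 1 for 31 and in tumour 6 for 27. The genes below their partner in tumour 6 were Mcm4, Cdt1, Orc1, Hells, Ccnd1, Ccnd2 and Cdkn1a. Each tumour gives 1 pair, so differences between tumours have no replicate check. With tumour 6 left out of the blocked fit, 32 of the 34 were called higher.

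**Figure D3:**
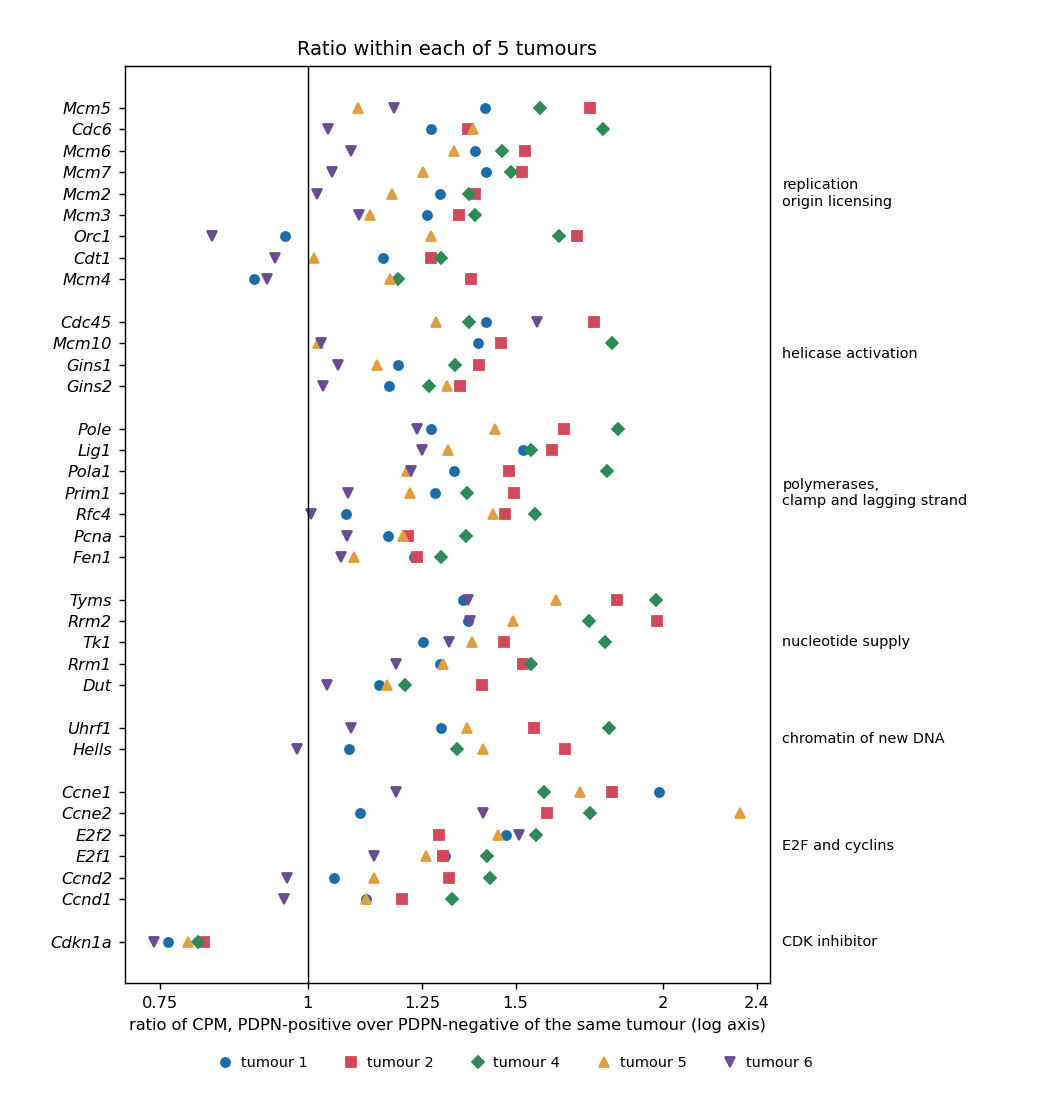
Ratio of CPM between the PDPN-positive and PDPN-negative library of the same tumour, on a log axis, for each of the 34 genes and 5 tumours. Tumours 2 and 4 tend to lie furthest to the right and tumour 6 nearest to 1, while the 5 points of Cdkn1a sit together between 0.741 and 0.816.

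Libraries of the same fraction also differed in level, and the order of the tumours was only partly shared between the fractions. Among PDPN-positive libraries, tumour 4 was the highest for 18 genes and tumour 1 for 14, and tumour 5 was the lowest for 25. Among PDPN-negative libraries, tumour 1 was the highest for 23, tumour 6 for 9 and tumour 4 for 2, and tumour 5 was the lowest for 19. The summed level of the 9 licensing genes shows this: 825, 779, 819.7, 623 and 719 CPM in the PDPN-positive and 676, 539, 587, 531 and 692 CPM in the PDPN-negative libraries. Tumour 5 with PDPN thus had less than tumours 1 and 6 without it. For the 5 nucleotide supply genes the sums were 316, 278, 313, 232 and 273 against 244, 173, 196, 171 and 221 CPM. The genes rise and fall together across libraries, so the 34 are not 34 independent measurements. Same-numbered libraries also deviated together over all genes tested (correlation across genes of their deviations from the group mean, 0.23 to 0.49).

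Genes of the same machinery outside the 34 were called higher more often than genes at large, though most did not pass the test. Of 56 other replication genes tested, 14 were higher, 1 was lower and 41 were not called. The share called was 26.8%, against 13.6% of all genes tested (6.83% higher and 6.77% lower). A positive fitted change was found for 49 of the 56, against 7007 of all 13595 genes tested. Their median log2 change was 0.24. Within tumours 1, 2, 4, 5 and 6 the median log2 ratio of the list was 0.26, 0.28, 0.36, 0.18 and 0.06. The ratios of the summed level were 1.04, 1.01, 1.06, 0.947 and 0.944. That sum leans on Samhd1, an abundant gene that was lower. It made up 443 to 664 CPM of PDPN-positive sums of 2317 to 2647 CPM. In the PDPN-negative libraries it made up 624 to 943 CPM of sums of 2431 to 2612 CPM. With the block 31 of the 56 were higher and 2 lower, where 13.8% and 14.3% of all genes were called. The 4 with the lowest p were Wdhd1, which ties the polymerase to the helicase, Clspn, a mediator of the checkpoint at stalled forks, Chtf18, of an alternative clamp loader, and Chaf1b, a histone chaperone. They were 1.36-fold, 1.51-fold, 1.46-fold and 1.36-fold higher (edgeR adjusted p = 0.00433, 0.00531, 0.00590 and 0.00617). The gene that fell was Samhd1, which breaks down the nucleotides that replication uses and is abundant in myeloid cells. Samhd1 measured 443, 664, 486, 616 and 459.9 CPM in the PDPN-positive and 624, 943, 755, 928 and 659 CPM in the PDPN-negative libraries. It was lower in each tumour (log2 fold change -0.55 ± 0.15, SE, adjusted p = 0.0300). That call was lost without PDPN-positive tumour 1 (0.0706), 4 (0.0775) or 6 (0.0680) or PDPN-negative tumour 2 (0.0747), 4 (0.0527) or 5 (0.0724), but held with the block (1.34e-06).

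Other regulators of the G1 to S step split around a median log2 change of 0.13. Of 23 tested, 7 were higher and 1 lower (10 and 2 with the block), and 4 were higher without PDPN-positive tumour 4. The share called without the block was 34.8%, against 13.6% of all genes tested. E2f7, a repressor of the E2F family induced in S phase, rose from 9.13 ± 1.23 to 14.6 ± 3.25 CPM (SD, n = 5 each), with an edgeR adjusted p of 0.0102. Ccna2, cyclin A2 of S and G2 phase, rose from a mean of 51.9 to one of 82.7 CPM (adjusted p = 0.0136). E2f6, another repressor, and Cdkn2c, which encodes the kinase inhibitor p18, were 1.29-fold and 1.48-fold higher (adjusted p = 0.0155 and 0.0169). The gene that fell was Rb1, the retinoblastoma gene, from 84.7 ± 5.72 to 72.9 ± 4.69 CPM (SD, n = 5 each, adjusted p = 0.0397). Its call was lost without PDPN-positive tumour 1 (0.0880), 2 (0.0566), 4 (0.0717) or 6 (0.0826) or PDPN-negative tumour 2 (0.102), 4 (0.0790) or 5 (0.0846).

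Mitotic genes, which act after replication, were higher as well. Of 28 tested, 22 were higher and 0 lower, and 28 of 28 had a positive fitted change. Over all 13595 genes tested, 7007 had a positive one. The share called was 78.6%, against 13.6% of all genes tested. Their median log2 change was 0.59 against 0.39 for the replication genes, and the difference between the 2 lists was not tested. With the block 26 were higher. Without PDPN-positive tumour 4, PDPN-negative tumour 2 or PDPN-negative tumour 5 the count was 10, 11 and 14. The 4 with the lowest p were the mitotic kinase gene Plk1, the kinetochore gene Cenpf, the spindle midzone gene Prc1 and the cytokinesis motor gene Kif20a, at 1.75-fold, 1.60-fold, 1.64-fold and 1.55-fold (edgeR adjusted p = 0.00132, 0.00612, 0.00650 and 0.00776). By tumour the mitotic medians were 0.54, 0.73, 0.80, 0.63 and 0.25, with tumour 6 again the lowest.

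**Figure D4:**
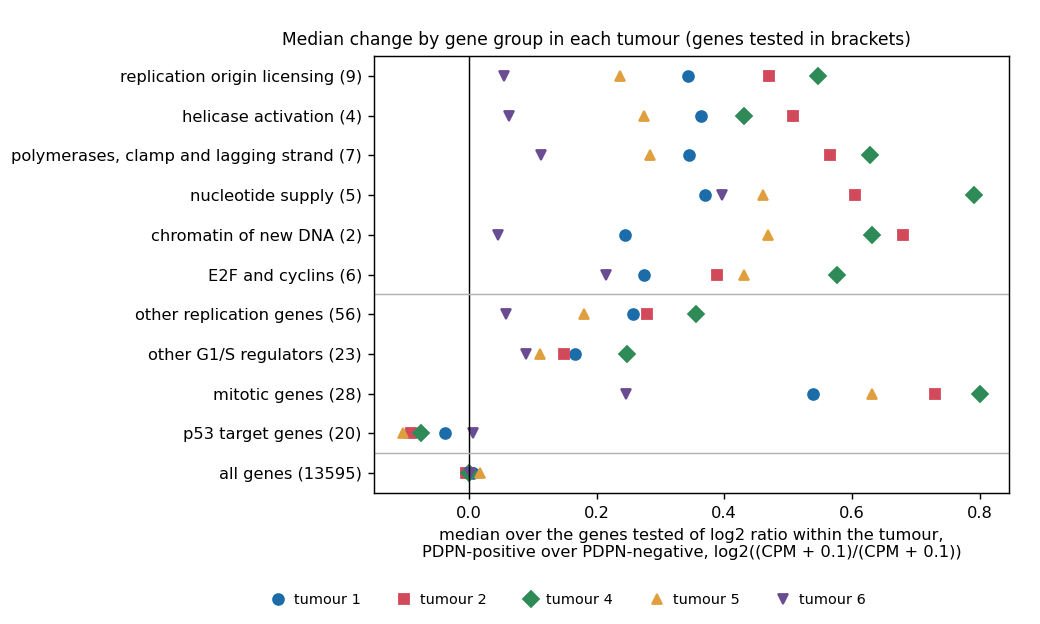
Median log2 ratio within each tumour, PDPN-positive over PDPN-negative, for the role groups of the 34 genes (above the first line), 4 further gene lists, and all 13595 genes tested. Replication and mitotic groups lie right of 0 in each tumour, lowest in tumour 6 for all but nucleotide supply, while the medians over all genes lie within 0.02 of 0.

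Levels of different genes were compared per kilobase of exon (GENCODE M21, all annotated exons of a gene joined). In PDPN-positive libraries Cdkn1a was the most abundant of the 34 at 178 CPM per kb, followed by Ccnd1 at 53.2, Mcm3 at 38.9, Mcm4 at 36.8, Fen1 at 35.9 and Pcna at 30.3. Those from Mcm3 to Fen1 lay within the spread between libraries of each other. The least abundant were Ccne2 at 2.06, Cdc6 at 2.62 and Orc1 at 2.89 CPM per kb. In PDPN-negative libraries Cdkn1a stood at 227 and Ccne2 at 1.34 CPM per kb. Per kilobase of exon, reads of Cdkn1a and Ccnd1 thus outnumbered those of the loading factors Cdc6, Cdt1 and Orc1 in both fractions. Reads of pre-amplified RNA do not give the number of transcripts.

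The sort and the presence of other cells were checked with marker genes. Of all genes tested, 13.6% were called in either direction, and 28.2% with the block. Pdpn was 11.1-fold higher in the PDPN-positive libraries. Of 12 macrophage markers all were tested, 1 was higher (Itgam, edgeR adjusted p = 0.0347) and 1 lower (Csf1r, 0.0493), and their summed level was 26932 to 30054 CPM in PDPN-positive and 25312 to 28700 CPM in PDPN-negative libraries. With the block 3 macrophage markers were higher and 3 lower. The calls of Itgam and Csf1r were each lost in 8 of the 10 fits without a library, with adjusted p of up to 0.0875 for Itgam and 0.111 for Csf1r (without PDPN-positive tumour 4 in both cases). Fibroblast markers were higher for 11 of 12, at 295 to 479 against 33.3 to 44.1 CPM in sum, with Col1a1 15.4-fold higher. Within tumours the fibroblast sum was 12.3-, 6.70-, 10.96-, 10.6- and 9.99-fold higher in tumours 1, 2, 4, 5 and 6. Epithelial markers, which tumour cells could bring, gave 0 calls of 9 tested with edgeR (1 higher and 2 lower with the block) and summed to 101 to 267 against 86.0 to 219 CPM. Most of that sum was Cdh1, at 124 ± 65.2 against 76.0 ± 46.9 CPM (SD, n = 5 each), higher with the block (edgeR adjusted p = 0.00683). Epcam had 2.15 ± 0.673 against 3.32 ± 0.583 CPM (SD, n = 5 each), lower with the block (edgeR adjusted p = 0.0356), but not when tumour 2 (0.136), 4 (0.0777) or 6 (0.0585) was left out of it. Monocyte markers summed to 457 to 683 against 961 to 1508 CPM (2 of 6 lower, 4 with the block), neutrophil markers to 119 to 146 against 218 to 292 CPM (6 lower and 1 higher of 7) and eosinophil markers to 4.31 to 12.6 against 57.2 to 141 CPM (4 of 4 lower). Endothelial markers gave 0 calls of 6 with edgeR (1 higher with the block). Dendritic cell, T and NK cell and B and plasma cell markers had 1 lower gene each of 5, 1 and 1 tested, and dendritic cell markers had 3 with the block. No marker was at 0 in all libraries. The part of any of these cells in the levels of the replication genes was not tested.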

How the data were processed

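Library counts were whole numbers deposited by the authors as 1 table of raw read counts per gene. The tools named in the submitters' processing notes are featureCounts 1.5.3, STAR 2.5.2b, Bowtie2 2.3.3.1 and cutadapt 1.15. Their settings, the genome build and annotation, and the handling of strand and shared reads are not given there. Exons of 13 of the 34 genes overlap exons of other genes in GENCODE M21, for 7 of them (Ccnd1, Ccne2, Cdc45, Fen1, Gins2, Mcm7 and Rfc4) genes with at least 1000 counts in all, so counts there are uncertain. Totals ran from 12597829 to 15406722 counts per library. No molecular identifiers are described, so a count is a read and not a molecule.

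The test was edgeR 4.0.16 (R 4.3.3): filterByExpr by group (minimum count 10, minimum total 15), TMM scaling, glmQLFit with robust dispersions and glmQLFTest with group as the only term, Benjamini-Hochberg adjustment over 13595 genes. The SE is the absolute log2 fold change divided by the square root of the F statistic. CPM use TMM-scaled library sizes. The tumour number pairs the libraries, since the labels give both fractions the same tumour, and same-numbered libraries deviated together in all 5 tumours (r at least 0.23). The fit with group as the only term ignores this pairing. Its SE, intervals and adjusted p-values therefore include differences between tumours. The fit with that block is given where it changes the call of a named gene or a list's count by over 1.5 times. DESeq2 1.42.0 was an alternative. Scripts were tested on simulated data. Within groups, no pair of libraries was as alike as sampling noise allows (mean chi-square per gene at least 7.58).

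The 34 genes and all gene lists were chosen with earlier results of these data known. All 34 are named. Of each other list, up to 4 called genes per direction with the lowest p are named. Pdpn, Itgam, Adgre1, Csf1r, Epcam and Col1a1 are named as checks. Pcna-ps2, Cdh1 and the Mcm5 and Mcm6 promoters were added after their values were seen.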

Additional observations from a re-analysis of the deposited data

Results flagged for a closer look

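Of 68 groups of 5 libraries examined (34 genes in 2 fractions), 1 held a library far from the others, where chance alone marks about 1 in 20. Gins1, a subunit of the helicase-activating GINS complex, measured 9.996 CPM in the PDPN-positive library of tumour 5 and 12.3 to 13.2 CPM in the other PDPN-positive libraries. The gap was 0.738 of the whole range of the group. The same library was the lowest PDPN-positive one for 25 of the 34 genes.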

How the results depend on the processing

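None of the 34 genes changed direction under any of the 22 alternatives run. Of the 20 called genes, 13 were called again without the block with any single library left out. The other 7 (Cdc6, Fen1, Mcm3, Mcm6, Mcm7, Pcna and Pola1) each missed the threshold without PDPN-positive tumour 4 (adjusted p between 0.0514 for Mcm6 and 0.0823 for Fen1), and all but Mcm6 without PDPN-negative tumour 2. In the blocked fit these 7 stayed called with any 1 tumour left out (edgeR adjusted p up to 0.0409, for Cdc6). So did Plk2, Rb1, Samhd1, Itgam and Csf1r (up to 0.0347, for Csf1r). The tumour as a replicate block gave 1880 genes higher and 1950 lower in all, 30 of the 34 genes higher, 31 other replication genes higher and 2 lower, 2 other G1/S regulators lower and 5 p53 target genes lower. DESeq2 with the block gave 1445 genes lower in all, 2 G1/S regulators lower and 5 p53 target genes lower. Library size alone gave 0 G1/S regulators lower. No filter on low counts gave 0 other replication genes and 0 G1/S regulators lower, and a stricter filter of 1 CPM in 5 libraries gave 2 other replication genes lower. With 1 library, or both libraries of 1 tumour in the blocked fit, left out, counts ranged as follows. Over all genes, 617 to 1925 were higher and 576 to 2016 lower. Of the 34 genes, 12 (without PDPN-positive tumour 4) to 32 (without tumour 6, with the block) were higher and 1 was lower throughout. Of other replication genes 10 to 34 were higher and 0 to 2 lower, of G1/S regulators 4 to 10 higher and 0 to 3 lower, of mitotic genes 10 to 28 higher, and of p53 target genes 0 to 1 higher and 2 to 5 lower. The causes were not tested. A promoter window of 100 bases before to 50 after the start held the E2F motif in 29.6% of the genes with a window, against 2.60% of tested genes with a window. Ccne2, with as few as 35 counts in a library, is the gene of the 34 most limited by depth.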
